A study of Homo sapiens with 9 samples.

Results

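The genes described here are the 9 that mark and drive the switch between epithelial and mesenchymal cell states: the cadherin genes CDH1 (E-cadherin) and CDH2 (N-cadherin), the epithelial adhesion gene EPCAM, and the transcription factor genes SNAI1, SNAI2, ZEB1, ZEB2, TWIST1 and TWIST2. They were chosen by symbol from the 58734 genes of the count table, with earlier results of these data known. All 9 were among the 16686 genes with enough counts to be tested. The cells were HEK293T, an established line derived from human embryonic kidney and transformed with adenoviral DNA and the SV40 large T antigen. Cells received SIN3A siRNA, SIN3B siRNA or control siRNA, all at 10 nM for 36 h by lipid transfection, and each group had 3 poly-A selected libraries. SIN3A and SIN3B are paralogous scaffolds of a histone deacetylase complex, and the series compared what each does in these cells. The labels name 1 cell line and do not say whether libraries of a group came from separate cultures, so the p-values below reflect library-to-library spread only, and this spread may be technical.

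E-cadherin is the calcium-dependent adhesion molecule of epithelial adherens junctions. Its cytoplasmic tail binds beta-catenin and p120-catenin, and alpha-catenin links the complex to actin. When epithelial cells become mesenchymal they lose E-cadherin, often gain N-cadherin, and switch on zinc finger factors of the SNAI and ZEB families or basic helix-loop-helix factors of the TWIST family. SNAI and ZEB factors bind E-box sequences at CDH1 and repress it through corepressors, and SNAI1 has been described to recruit SIN3A with HDAC1 and HDAC2 there. The ZEB factors are in turn held down by microRNAs of the miR-200 family, which ZEB factors repress.

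Library totals ran between 22542798 and 27084884 counts. In every library at least 98.0% of nonzero values were divisible by 4, for a reason not given in the sources used here. A step of 4 counts was therefore taken as the smallest unit. The floor was set at 3 such steps (12 counts), which is 0.442 to 0.552 CPM (counts scaled to library size with TMM factors) and covers counting error only. SIN3A RNA averaged 47.3 ± 2.5 CPM in the SIN3A knockdown and 145.5 ± 4.0 CPM in control (SD, n = 3 each). SIN3B RNA averaged 55.1 ± 3.6 CPM in the SIN3B knockdown and 96.2 ± 4.7 CPM in control. The log2 fold change of the target RNA was thus -1.62 with SIN3A and -0.80 with SIN3B knockdown. The part of this unequal depth in the direct comparisons below was not tested. The 3 SIN3A knockdown libraries lay further apart than those of the other groups: the chi-square per degree of freedom between replicates was 3.53 to 7.37 in the SIN3A knockdown, 1.42 to 1.98 in the SIN3B knockdown and 1.57 to 1.86 in control. Of 5 HEK293 markers the summed level was 1017 to 1253 CPM in the SIN3A knockdown, 906 to 968 CPM in the SIN3B knockdown and 1213 to 1338 CPM in control. Of the 5, 2 were called lower in the SIN3A and 3 in the SIN3B knockdown, and the others did not pass the test. These are 40% and 60%, where 10.8% and 11.6% of all tested genes were called lower. Of 9 haematopoietic markers the summed level was 4.07 to 9.02, 4.13 to 6.24 and 4.39 to 5.56 CPM in the same groups, with PTPRC, CD3E and HBB at 0 in all libraries. Of 8 fibroblast markers it was 26.3 to 37.6, 25.3 to 29.9 and 26.9 to 28.0 CPM, with COL1A2, DCN and FAP at 0. Of the 2 of these that were tested, COL1A1 was called higher in the SIN3A knockdown (log2 fold change 0.39, edgeR adjusted p = 0.033), a call lost when any of control replicates 1, 2 and 3, SIN3A knockdown replicates 2 and 3 or SIN3B knockdown replicate 1 was left out (edgeR adjusted p = 0.051 to 0.13). The part of these levels in the results below was not tested.

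After SIN3A knockdown the epithelial adhesion genes CDH1 and EPCAM fell to 33.9% and 31.4% of control, SNAI2 fell to 76.4%, and ZEB1 rose to 160%. After SIN3B knockdown no gene of the 9 passed the test. CDH2 and TWIST2 did not pass it in any of the 3 comparisons, nor did SNAI1, ZEB2 and TWIST1. With SIN3A knockdown, 4 of the 9 were called (edgeR quasi-likelihood test, Benjamini-Hochberg adjusted p under 0.05 over all genes), 3 lower and 1 higher. In that comparison 23.0% of all tested genes were called, 10.8% lower and 12.2% higher.

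**Figure D1:**
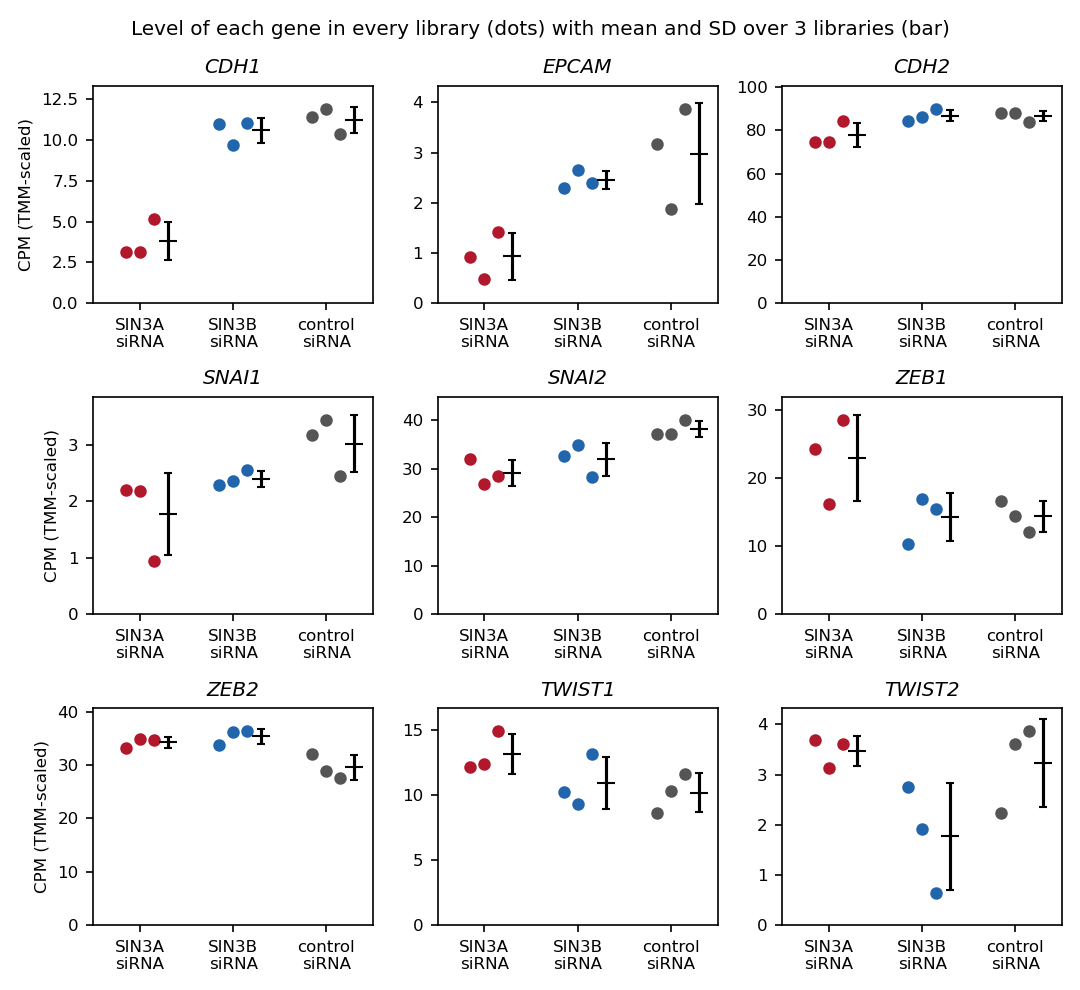
TMM-scaled CPM of the 9 genes in each library (dots) for SIN3A, SIN3B and control siRNA, with the mean and SD over 3 libraries (black bars) and each vertical axis starting at 0. The SIN3A siRNA libraries lie below all others for CDH1, EPCAM and SNAI1, of which SNAI1 did not pass the test, while the ZEB1 libraries of the groups overlap.

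CDH1 (ENSG00000039068) lies on the plus strand of chromosome 16, at 68737225 to 68835548 of GRCh38. Its level was 3.13, 3.13 and 5.17 CPM in the SIN3A knockdown libraries, 11.02, 9.73 and 11.05 CPM in the SIN3B knockdown and 11.4, 11.9 and 10.4 CPM in control. Every SIN3A knockdown library was below every other library, and the SIN3B knockdown and control libraries overlapped. The SIN3A knockdown mean of 3.81 ± 1.18 CPM was 33.9% of the control mean of 11.2 ± 0.79 CPM (SD, n = 3 each). The log2 fold change was -1.55 ± 0.19 (SE, edgeR adjusted p = 1.4e-05), and CDH1 was called in all 20 alternative analyses, at log2 fold changes between -1.84 and -1.27. With SIN3B knockdown the mean was 10.6 ± 0.75 CPM and the log2 fold change -0.09 ± 0.18 (edgeR adjusted p = 0.80). The direct comparison of the SIN3A with the SIN3B knockdown gave -1.47 ± 0.19 (edgeR adjusted p = 1.2e-05), so the response of CDH1 differed between these knockdowns of unequal depth. In such bulk libraries, fewer cells with E-cadherin RNA and less of it per cell cannot be told apart. An antisense gene that shares 347 bases of exon with CDH1, AC099314.1, had no count.

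EPCAM (ENSG00000119888, chromosome 2, 47345158 to 47387601, plus strand) encodes a homophilic adhesion protein of epithelial cells. It was scarce in all groups, at 0.920, 0.470 and 1.41 CPM in the SIN3A knockdown, 2.30, 2.65 and 2.40 CPM in the SIN3B knockdown and 3.18, 1.88 and 3.86 CPM in control. The counts behind these values were 20, 12 and 36 in the SIN3A knockdown and 80, 48 and 88 in control, so SIN3A knockdown replicate 2 was at the floor. No SIN3A knockdown library overlapped another group. The SIN3A knockdown mean was 31.4% of control, and the log2 difference was -1.66 ± 0.39 (SE, edgeR adjusted p = 0.0044). The ratio of the summed counts, taken in steps of 4, was 0.318 with an exact 95% interval of 0.173 to 0.557. This interval covers counting error only and not the spread between libraries. EPCAM was called lower than control in all 20 alternatives. The SIN3B knockdown stood at -0.28 ± 0.36 against control (edgeR adjusted p = 0.66). In the direct comparison the SIN3A knockdown was below the SIN3B knockdown, at -1.39 ± 0.39 (edgeR adjusted p = 0.012). Without SIN3A knockdown replicate 2 this last call was lost (-1.06, edgeR adjusted p = 0.059), as it was with limma on log2(FPKM + 1) (-0.35, adjusted p = 0.054).

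The EPCAM transcript holds a 7-base sequence, GGTCTAA, that an earlier analysis of these data linked to genes that fell with the SIN3A siRNA. The stretch is shown because EPCAM is the only gene of the 9 with this 7-mer or its overlapping partner AGGTCTA in its transcript. It lies in the coding part, at chr2:47379887-47379916 on the plus strand of GRCh38, and capitals mark the 7-mer.
EPCAM site: tctcaatgcagGGTCTAAaagctggtgtta
Among 13436 tested protein-coding genes, 18.2% of those with such a 7-mer only in the coding part were called lower with SIN3A knockdown, against 25.7% of those with one in the 3′ UTR and 10.8% of those with none. These 7-mers were linked to falling genes in the same data, so the shares are a description and no independent support. The part of the EPCAM site in the EPCAM result was not tested. CDH1, SNAI2 and ZEB1 held neither 7-mer in the transcript examined. The corresponding 7-mers linked to the SIN3B siRNA, ACAGCCT and CAGCCTT, were held by 6 of the 9 genes. CDH1, SNAI1 and ZEB2 held such a 7-mer in the 3′ UTR and CDH2, TWIST1 and TWIST2 in the coding part. Such a 7-mer lay in the 3′ UTR of 23.1% of the 13436 genes and only in the coding part of 24.4%. No gene of the 9 was called with SIN3B knockdown, with or without such a 7-mer, so the calls do not set these 6 apart. Among the same 13436 genes, 21.6% of those with such a 7-mer in the 3′ UTR were called lower with SIN3B knockdown, 15.4% of those with one only in the coding part and 8.98% of those with none. The same limit holds for these shares.

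CDH2 (ENSG00000170558, chromosome 18, 27950966 to 28177446, minus strand) was the most abundant of the 9 genes. It was at 74.7, 74.7 and 84.3 CPM in the SIN3A knockdown, 84.5, 86.2 and 89.8 CPM in the SIN3B knockdown and 87.9, 88.0 and 84.1 CPM in control. SIN3A knockdown replicate 3 lay just above the lowest control library. The log2 fold change was -0.15 ± 0.08 with SIN3A knockdown (edgeR adjusted p = 0.16; with upper-quartile factors -0.22, called at 0.038) and 0.00 ± 0.08 with SIN3B knockdown (edgeR adjusted p = 0.99). In the direct comparison of SIN3A with SIN3B knockdown it was -0.16 ± 0.08 (edgeR adjusted p = 0.14), which was called when SIN3A knockdown replicate 3 was left out (-0.22, edgeR adjusted p = 0.040). The mean level was 77.9 ± 5.6 CPM in the SIN3A knockdown and 86.7 ± 2.2 CPM in control (SD, n = 3 each), beside the lower CDH1 level.

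Per kilobase of the transcript with the longest coding part, CDH2 was 26.9, 26.9 and 18.4 times the level of CDH1 in the SIN3A knockdown libraries. The ratio was 8.63, 9.98 and 9.16 in the SIN3B knockdown and 8.65, 8.33 and 9.14 in control. N-cadherin RNA therefore exceeded E-cadherin RNA in every library, and the wider ratio of the SIN3A knockdown came with the lower CDH1 level.

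The order of the 9 genes on the same scale of CPM per kilobase was taken in control. CDH2 came first at 20.0 ± 0.51, followed by SNAI2 at 15.7 ± 0.67, TWIST1 at 6.10 ± 0.91 and ZEB2 at 3.08 ± 0.24 CPM per kilobase. The library ranges of these 4 did not overlap. ZEB1 at 2.40 ± 0.38, CDH1 at 2.30 ± 0.16, TWIST2 at 2.30 ± 0.63, EPCAM at 1.94 ± 0.66 and SNAI1 at 1.80 ± 0.30 followed, and the ranges of neighbours among these 5 overlapped. In the SIN3A knockdown CDH1 (0.781 ± 0.242 CPM per kilobase) and EPCAM (0.610 ± 0.307) stood at the end of the order, below SNAI1 (1.06 ± 0.43), and the ranges of neighbours among these 3 overlapped.

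**Figure D2:**
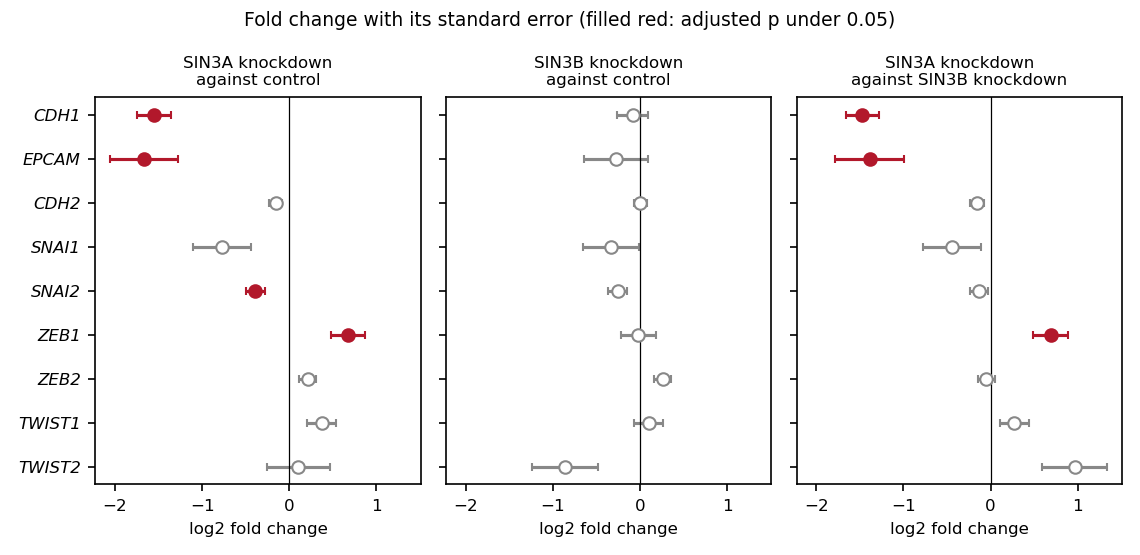
Log2 fold change of each gene with its standard error in the 3 comparisons, with filled red points for an edgeR adjusted p under 0.05. CDH1 and EPCAM lie near -1.5 in both comparisons that involve the SIN3A knockdown, and no point is filled for SIN3B knockdown against control.

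The SNAI genes encode zinc finger repressors (Snail and Slug). SNAI1 (ENSG00000124216, chromosome 20, 49982999 to 49988886, plus strand) was at 2.21, 2.19 and 0.940 CPM in the SIN3A knockdown, 2.30, 2.36 and 2.56 CPM in the SIN3B knockdown and 3.18, 3.44 and 2.46 CPM in control. The SIN3A knockdown libraries did not overlap control, but the difference did not pass the test (log2 fold change -0.77 ± 0.33, edgeR adjusted p = 0.10) and passed it in none of the 20 alternatives. With SIN3B knockdown the log2 fold change was -0.33 ± 0.32 (edgeR adjusted p = 0.53). The SIN3A knockdown libraries also lay below those of the SIN3B knockdown, but this difference did not pass the test (-0.44 ± 0.33, edgeR adjusted p = 0.37).

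SNAI2 (ENSG00000019549, chromosome 8, 48917604 to 48921740, minus strand) was far more abundant. It was at 32.0, 26.9 and 28.5 CPM in the SIN3A knockdown, 32.6, 34.9 and 28.3 CPM in the SIN3B knockdown and 37.2, 37.3 and 40.0 CPM in control. Libraries of both knockdowns lay below all control libraries. The SIN3A knockdown mean was 76.4% of control (log2 fold change -0.39 ± 0.11, edgeR adjusted p = 0.012). This call was lost without control replicate 3 (-0.34, edgeR adjusted p = 0.069), and with limma on log2 FPKM (adjusted p = 0.082 and 0.093 with pseudocounts of 1 and 0.1). The SIN3B knockdown mean was 83.7% of control (-0.26 ± 0.11, edgeR adjusted p = 0.089). That difference passed the test with GC and exon length offsets (-0.40, edgeR adjusted p = 0.0047) and in a fit of the 6 libraries compared (-0.25, 0.034). With all 9 libraries, the SIN3A and SIN3B knockdowns did not differ beyond their spread (-0.13 ± 0.11, edgeR adjusted p = 0.39). SNAI3, another gene of the family, had a log2 fold change of -0.76 ± 0.46 with SIN3A knockdown (edgeR adjusted p = 0.25) and 0.03 ± 0.44 with SIN3B knockdown (edgeR adjusted p = 0.98).

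ZEB1 (ENSG00000148516, chromosome 10, 31318495 to 31529814, plus strand) encodes a zinc finger and homeodomain repressor of CDH1. It was at 24.3, 16.1 and 28.5 CPM in the SIN3A knockdown, 10.3, 17.0 and 15.5 CPM in the SIN3B knockdown and 16.7, 14.4 and 12.1 CPM in control. SIN3A knockdown replicate 2 lay within the control range and the other 2 libraries above it. The SIN3A knockdown mean of 23.0 ± 6.3 CPM was 160% of the control mean of 14.4 ± 2.3 CPM (SD, n = 3 each), a log2 difference of 0.67 ± 0.20 (SE, edgeR adjusted p = 0.019). This call was lost when any of 4 libraries was left out: control replicate 2 (0.67, edgeR adjusted p = 0.074), control replicate 3 (0.58, 0.090), SIN3A knockdown replicate 1 (0.65, 0.096) or SIN3A knockdown replicate 3 (0.49, 0.089). It was also lost with limma on log2 FPKM (adjusted p = 0.10 with either pseudocount). With SIN3B knockdown the log2 fold change was -0.02 ± 0.20 (edgeR adjusted p = 0.97).

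The SIN3A knockdown was above the SIN3B knockdown for ZEB1, at 0.69 ± 0.20 on the log2 scale (edgeR adjusted p = 0.013). That call was lost without SIN3A knockdown replicate 1 (0.66, edgeR adjusted p = 0.083), without SIN3A knockdown replicate 3 (0.50, 0.064) and without SIN3B knockdown replicate 1 (0.51, 0.074), and with limma on log2 FPKM (0.66 and 0.68 with pseudocounts of 1 and 0.1, adjusted p = 0.079 and 0.078). The antisense gene ZEB1-AS1 shares 366 bases of exon with ZEB1, and whether reads were counted by strand is not given in the sources used here, so reads from the overlap cannot be assigned with certainty. ZEB1-AS1 averaged 7.72 ± 1.58 CPM in the SIN3A knockdown, 9.19 ± 0.98 CPM in the SIN3B knockdown and 8.55 ± 2.74 CPM in control, and was not called (log2 fold change -0.14 ± 0.21, edgeR adjusted p = 0.69, with SIN3A knockdown).

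ZEB2 (ENSG00000169554, chromosome 2, 144364364 to 144524583, minus strand), the paralog of ZEB1, was at 33.1, 34.9 and 34.8 CPM in the SIN3A knockdown, 33.8, 36.1 and 36.3 CPM in the SIN3B knockdown and 32.1, 29.0 and 27.6 CPM in control. All libraries of both knockdowns lay above all control libraries, by a small margin. The antisense gene ZEB2-AS1 shares 1299 bases of exon with ZEB2, so reads from that overlap cannot be assigned with certainty either. CDH2 and TWIST1 share 136 and 141 bases of exon with antisense genes, under the same limit. The log2 fold change was 0.21 ± 0.10 with SIN3A knockdown (edgeR adjusted p = 0.13) and 0.26 ± 0.10 with SIN3B knockdown (edgeR adjusted p = 0.058). The SIN3B knockdown value passed the test without control replicate 1 (0.32, edgeR adjusted p = 0.048), without SIN3A knockdown replicate 1 (0.27, 0.036) and without SIN3A knockdown replicate 3 (0.26, 0.045), as well as with DESeq2 (0.26, 0.046) and in a fit of the 6 libraries compared (0.26, 0.027). With GC and exon length offsets it was -0.0099 (edgeR adjusted p = 0.96).

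The mature miR-200 microRNAs and miR-205 are shown because they are known to target the ZEB messenger RNAs, and capitals mark their seeds (bases 2 to 8). The sequences are those of RefSeq on GRCh38.p14, and they fall into groups of 3, 2 and 1 by shared seed.
hsa-miR-200b-3p: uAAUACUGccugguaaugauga
hsa-miR-200c-3p: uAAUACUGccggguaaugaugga
hsa-miR-429: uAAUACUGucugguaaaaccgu
hsa-miR-200a-3p: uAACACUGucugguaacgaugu
hsa-miR-141-3p: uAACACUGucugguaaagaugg
hsa-miR-205-5p: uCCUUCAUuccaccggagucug
On the strand of the messenger RNA, written as DNA, the matches searched were CAGTATT and CAGTGTT for the miR-200 seeds and ATGAAGG for miR-205. The 3′ UTRs of ZEB1 and ZEB2 each held 9 matches to the miR-200 seeds, 6 and 5 of them CAGTATT and 3 and 4 CAGTGTT. ZEB1 also held 1 match to the miR-205 seed. SNAI2 held 1 CAGTATT, and the other 6 genes held no match of the 3 kinds. Of 13187 tested genes with an annotated 3′ UTR, 16.8% held at least 1 CAGTATT, 18.6% at least 1 CAGTGTT and 11.3% at least 1 ATGAAGG. A site of each of the miR-200 kinds is given for ZEB1 and for ZEB2, and the miR-205 site for ZEB1, with the seed match in capitals.
ZEB1 site 1: tggcattgttttatcttatCAGTATTatca
ZEB1 site 2: acagcaaaatcatcagaatCAGTGTTtgtg
ZEB1 site 3: tttgaatatgtggtaacatATGAAGGatat
ZEB2 site 1: tgcccgcactaccatacatCAGTATTttta
ZEB2 site 2: attatgcaaaaattttgtaCAGTGTTaagg
Poly-A libraries do not measure mature microRNAs. The host transcript of miR-200c and miR-141, MIR200CHG, had 4 counts in 1 SIN3A knockdown library and 4 in 1 SIN3B knockdown library and was at 0 in the other 7, and MIR205HG was at 0 in all 9. The genes of miR-200b, miR-200a and miR-429 lie elsewhere than MIR200CHG, on chromosome 1. No host transcript level is given for them, so these values do not cover the whole family.

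The E-box is the sequence that SNAI and ZEB factors bind, searched here as CAGGTG or its reverse complement CACCTG. RefSeq promoter windows of 300 bases (GRCh38.p14) were listed for 4 of the 9 genes, CDH2, TWIST2, ZEB1 and ZEB2, with 11 windows in all. CDH1, EPCAM, SNAI1, SNAI2 and TWIST1 had no window used here. A ZEB1 window, at chr10:31318966-31319265 on the plus strand, is shown because it held 3 E-boxes, in capitals.
ZEB1 promoter: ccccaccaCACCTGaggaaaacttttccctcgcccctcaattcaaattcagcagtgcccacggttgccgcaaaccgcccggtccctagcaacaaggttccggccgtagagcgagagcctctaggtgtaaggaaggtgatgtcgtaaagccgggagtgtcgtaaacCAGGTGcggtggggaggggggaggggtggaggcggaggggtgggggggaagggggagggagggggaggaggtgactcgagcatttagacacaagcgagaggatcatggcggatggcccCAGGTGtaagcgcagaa
Of 35116 promoter windows of this length, 20.59% held at least 1 E-box and 0.64% held 3 or more. Another ZEB1 window held 1, and the other 9 windows of the 4 genes held none. A match describes the letters of the window and does not show that a factor binds there.

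TWIST1 (ENSG00000122691, chromosome 7, 19020991 to 19117672, minus strand) and TWIST2 (ENSG00000233608, chromosome 2, 238848032 to 238910543, plus strand) encode basic helix-loop-helix factors that bind DNA as dimers with E proteins. TWIST1 was at 12.1, 12.4 and 14.9 CPM in the SIN3A knockdown, 10.3, 9.29 and 13.1 CPM in the SIN3B knockdown and 8.58, 10.3 and 11.6 CPM in control. All SIN3A knockdown libraries were above control, yet the difference did not pass the test (log2 fold change 0.37 ± 0.17, edgeR adjusted p = 0.12). It passed with GC and exon length offsets (0.45, edgeR adjusted p = 0.047). With SIN3B knockdown the log2 fold change was 0.10 ± 0.17 (edgeR adjusted p = 0.74).

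TWIST2 was at 3.68, 3.13 and 3.60 CPM in the SIN3A knockdown, 2.75, 1.92 and 0.640 CPM in the SIN3B knockdown and 2.23, 3.60 and 3.86 CPM in control. SIN3B knockdown replicate 3 had 16 counts, just over the floor, and replicate 1 of that group overlapped control. The log2 fold change was 0.10 ± 0.36 with SIN3A knockdown (edgeR adjusted p = 0.88) and -0.86 ± 0.37 with SIN3B knockdown (edgeR adjusted p = 0.11). The SIN3B knockdown value passed the test when SIN3B knockdown replicate 1 was left out (-1.34, edgeR adjusted p = 0.027). The SIN3A knockdown was above the SIN3B knockdown in every library, with a log2 fold change of 0.96 ± 0.37 that missed the threshold (edgeR adjusted p = 0.062). Without SIN3B knockdown replicate 1 that difference was 1.44 (edgeR adjusted p = 0.016), and without SIN3B knockdown replicate 3 it was 0.57 (0.24). It also passed with no filter (0.97, edgeR adjusted p = 0.020) and with counts divided by 4 (0.93, 0.043).

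With SIN3B knockdown, edgeR called 0 of the 9 genes, where 23.6% of all tested genes were called, 12.0% higher and 11.6% lower. Their unadjusted p was under 0.05 for 3 genes, SNAI2, ZEB2 and TWIST2. DESeq2 called 1 gene, ZEB2, and limma on log2 FPKM called 0. In the direct comparison 3 genes were called (CDH1 and EPCAM lower and ZEB1 higher in the SIN3A knockdown), where 27.1% of all tested genes were called, 14.5% higher and 12.6% lower. The comparisons of the knockdowns with control share the control libraries, so their values are given side by side only.

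The other cadherins were described next, from a list of 55 cadherin superfamily genes of which 31 were tested. With SIN3A knockdown 10 fell and 2 rose, with a median log2 fold change of -0.33 over the 31 genes and -0.0016 over all tested genes. With SIN3B knockdown 8 fell and 1 rose, with medians of -0.12 and -0.015. The share called was 38.7% and 29.0%, where 23.0% and 23.6% of all tested genes were called. CDH3 (ENSG00000062038), the P-cadherin gene, had the lowest value of the 31 in both. It had 12, 8 and 12 counts in the SIN3A knockdown, at or under the floor, 36, 32 and 44 counts in the SIN3B knockdown and 88, 64 and 76 counts in control. The groups did not overlap. CDH3 RNA was thus at 0.445 ± 0.121 CPM in the SIN3A knockdown, 1.44 ± 0.30 CPM in the SIN3B knockdown and 3.11 ± 0.53 CPM in control (SD, n = 3 each). The ratio of summed counts of the SIN3A knockdown to control, in steps of 4, was 0.142 with an exact 95% interval of 0.0584 to 0.298. As for EPCAM, this interval covers counting error only. CDH3 fell with SIN3A knockdown (log2 fold change -2.80 ± 0.41, edgeR adjusted p = 6.5e-05), and this call held in all 20 alternatives.

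With SIN3B knockdown CDH3 had a summed-count ratio to control of 0.461 (0.283 to 0.737, counting error only). It was called at -1.11 ± 0.36 on the log2 scale (edgeR adjusted p = 0.029). That call was lost without control replicate 1 (-1.02, edgeR adjusted p = 0.11), control replicate 3 (-1.06, 0.096), SIN3B knockdown replicate 1 (-1.10, 0.071) or SIN3B knockdown replicate 2 (-0.99, 0.11). It was also lost with no filter (-1.11, 0.052) and with GC and exon length offsets (-0.99, 0.059). The SIN3A knockdown was below the SIN3B knockdown, at -1.69 ± 0.41 (edgeR adjusted p = 0.0041), which was lost with limma on log2(FPKM + 1) (-0.25, adjusted p = 0.058).

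Of the other cadherin genes, CDH23, a cadherin of sensory hair cell tip links, fell in both knockdowns (log2 fold change -1.14 ± 0.17 with SIN3A and -0.66 ± 0.16 with SIN3B knockdown). CLSTN1, a calsyntenin of vesicle transport, and CELSR3, a planar polarity cadherin, both fell with SIN3A knockdown (-0.91 ± 0.08 and -0.91 ± 0.12) and did not pass the test with SIN3B knockdown (-0.14 ± 0.08 and -0.12 ± 0.11). Their direct comparisons were called as well (-0.76 ± 0.08 and -0.79 ± 0.12). DSG2, a desmosomal cadherin, gave the other picture: 204 ± 12 CPM in the SIN3A knockdown, 134 ± 7.8 CPM in the SIN3B knockdown and 210 ± 19 CPM in control. It fell with SIN3B knockdown (-0.65 ± 0.08, edgeR adjusted p = 5.6e-06) and was higher in the SIN3A than in the SIN3B knockdown (0.60 ± 0.08, edgeR adjusted p = 7.1e-06). CDHR1, a photoreceptor cadherin, also fell with SIN3B knockdown (-0.61 ± 0.16). The named calls of this paragraph held in all 20 alternatives, which was a condition for naming genes of the lists.

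**Figure D3:**
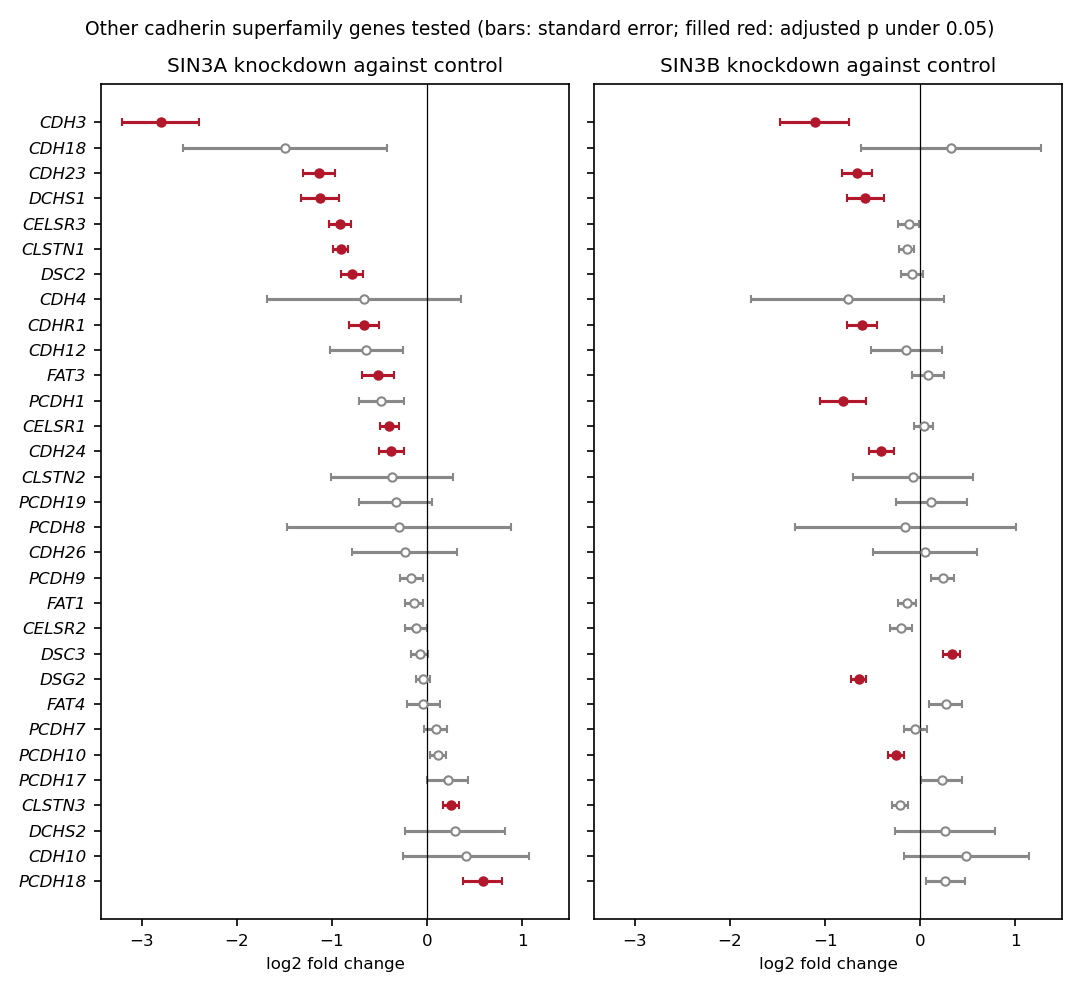
Log2 fold changes with standard errors of the 31 tested cadherin superfamily genes outside the 9, sorted by the value with SIN3A knockdown (left) and shown in the same order with SIN3B knockdown (right), with filled red points for an edgeR adjusted p under 0.05. CDH3 is at the top with -2.80 and -1.11, and more points are filled to the left of 0 than to the right in both panels.

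CDH3 lies next to CDH1 on chromosome 16 (68636189 to 68722616, plus strand), and its start is 101 kb upstream of that of CDH1. The tested genes whose bodies reach within 500 kb of either end of CDH1 were therefore listed, a choice made after the CDH3 value was seen. Of 19 such genes, CDH1 included, 7 were called with SIN3A knockdown, 4 lower and 3 higher, which is 36.8% where 23.0% of all tested genes were called. The count includes CDH1 and CDH3, which prompted it, and without them 5 of 17 were called (29.4%). With SIN3B knockdown 5 of the 19 were called, 2 higher and 3 lower, or 26.3%, beside 23.6% of all tested genes. CDH3 and CDH1 were adjacent among the tested genes. ZFP90, the next tested gene upstream, had a log2 fold change of -0.05 ± 0.11 with SIN3A knockdown (edgeR adjusted p = 0.78), and TANGO6, the next downstream, -0.30 ± 0.13 (edgeR adjusted p = 0.096). Further downstream VPS4A, an ATPase of membrane scission, fell with SIN3A knockdown (-1.31 ± 0.09, edgeR adjusted p = 6.0e-09) and stood at 0.03 ± 0.08 with SIN3B knockdown (edgeR adjusted p = 0.85).

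**Figure D4:**
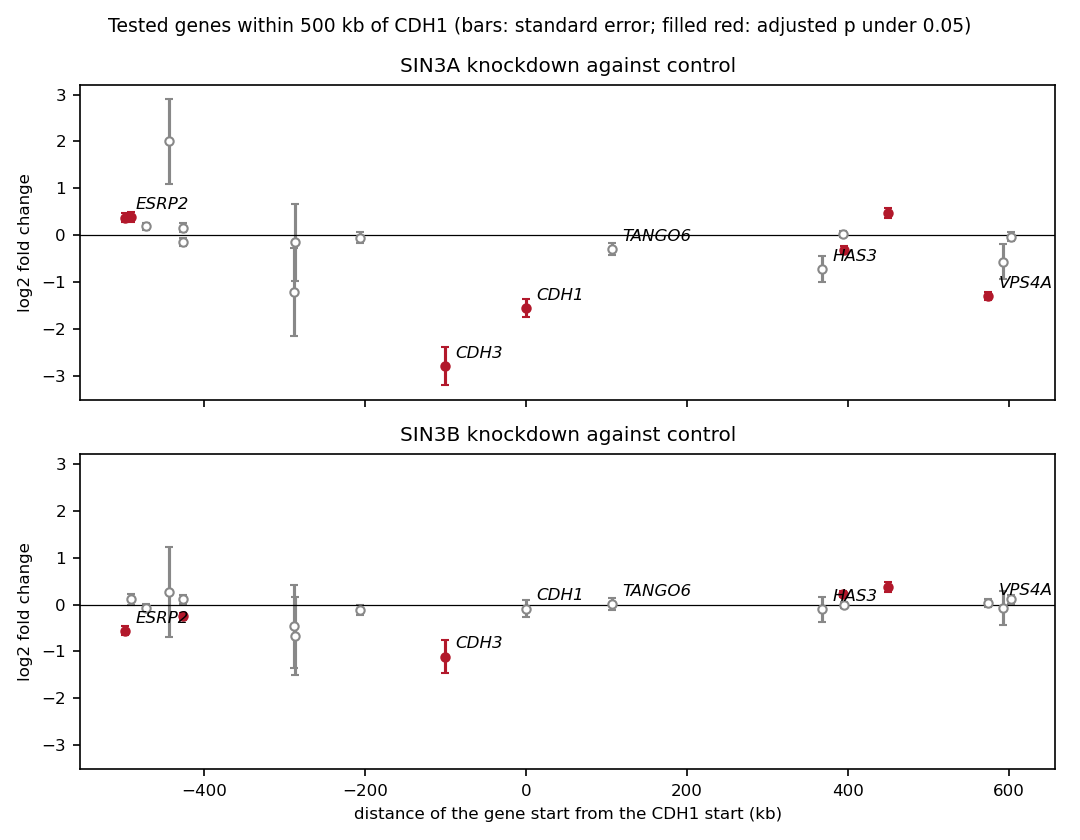
Log2 fold change with its standard error against the distance of each gene's start from that of CDH1 in kb, for the 19 tested genes within 500 kb of either end of CDH1, with SIN3A knockdown above and SIN3B knockdown below and filled red points for an edgeR adjusted p under 0.05. CDH3 and CDH1 have the lowest values in the SIN3A panel and stand between ZFP90 at -0.05 and TANGO6 at -0.30.

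ESRP2, an epithelial splicing regulator whose gene lies upstream of CDH1 in the same window, moved in opposite directions. It was at 50.8, 54.0 and 54.1 CPM in the SIN3A knockdown, 26.2, 26.2 and 30.6 CPM in the SIN3B knockdown and 41.8, 40.9 and 39.9 CPM in control. The 3 groups did not overlap. ESRP2 rose with SIN3A knockdown (log2 fold change 0.37 ± 0.09, edgeR adjusted p = 0.0062) and fell with SIN3B knockdown (-0.56 ± 0.09, edgeR adjusted p = 2.3e-04), and the direct comparison gave 0.94 ± 0.09 (edgeR adjusted p = 3.6e-07). Of the list of 18 epithelial transcription and splicing factors, 9 were tested. With SIN3A knockdown 2 of these rose (median log2 fold change 0.31), and with SIN3B knockdown 1 fell (median 0.02), or 22.2% and 11.1% called, beside 23.0% and 23.6% of all tested genes.

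The catenins and other junction partners that hold cadherins at the membrane rose or did not pass the test against control. Of 17 tested, 4 rose with SIN3A knockdown (median log2 fold change 0.11) and 4 with SIN3B knockdown (median 0.03), with 2 of these genes called in both and 11 of the 17 in neither. This is 23.5% called in each, near the 23.0% and 23.6% of all tested genes. CTNNB1, which encodes beta-catenin, averaged 343 ± 14 CPM in the SIN3A knockdown, 353 ± 7.4 CPM in the SIN3B knockdown and 357 ± 9.5 CPM in control, with log2 fold changes of -0.05 ± 0.06 and -0.01 ± 0.06. CTNNA1 (alpha-catenin) was called higher with SIN3A knockdown (0.21, edgeR adjusted p = 0.023), a call lost without control replicate 1 (edgeR adjusted p = 0.11), control replicate 2 (0.089) or SIN3A knockdown replicate 2 (0.064), with upper-quartile factors (0.14) and in a fit of the 6 libraries compared (0.062). CTNND1 (p120-catenin) stood at -0.11 ± 0.06 with SIN3A and 0.11 ± 0.06 with SIN3B knockdown and did not pass the test against control in either. NECTIN2, an immunoglobulin-like junction protein, rose with SIN3A knockdown (0.40 ± 0.08, edgeR adjusted p = 0.0016), as did the catenin-like CTNNAL1 (0.35 ± 0.09, edgeR adjusted p = 0.0057). JUP (plakoglobin) and PKP4 (plakophilin 4) rose with SIN3B knockdown (0.39 ± 0.08 and 0.33 ± 0.07). The direct comparison of SIN3A with SIN3B knockdown was called for JUP (-0.35 ± 0.08), PKP4 (-0.27 ± 0.07) and NECTIN2 (0.34 ± 0.08). It was also called for CTNNA1 (0.22 ± 0.07, edgeR adjusted p = 0.016) and CTNND1 (-0.22 ± 0.06, 0.012). The CTNNA1 call was lost without SIN3A knockdown replicate 2 (edgeR adjusted p = 0.053) or SIN3B knockdown replicate 2 (0.092). The CTNND1 call was lost without SIN3B knockdown replicate 1 (0.066).

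Other epithelial junction and surface genes were mixed. Of 29 tested, 2 rose and 4 fell with SIN3A knockdown (median log2 fold change -0.12), and 5 rose and 3 fell with SIN3B knockdown (median -0.07). This is 20.7% and 27.6% called, beside 23.0% and 23.6% of all tested genes. KRT8, a keratin of simple epithelia, fell with SIN3A knockdown to 14.2 ± 1.8 CPM, against 21.5 ± 1.7 CPM in control (log2 fold change -0.60 ± 0.13, edgeR adjusted p = 0.0027). Its partner keratin KRT18 was at 0.05 ± 0.10 (edgeR adjusted p = 0.80). With SIN3B knockdown the junction receptor gene CXADR rose (0.74 ± 0.14), as did the polarity gene PALS1 (0.60 ± 0.12), the tight junction gene F11R (0.55 ± 0.12) and the lipid synthesis gene CDS1 (0.53 ± 0.11). All of these calls held in the 20 alternatives, which was a condition for naming them.

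The counts of the lists that follow stand beside 12.2% higher and 10.8% lower of all tested genes with SIN3A knockdown, and 12.0% higher and 11.6% lower with SIN3B knockdown. Of 27 tested mesenchymal genes, 4 rose and 7 fell with SIN3A knockdown (median log2 fold change -0.12), and 2 rose and 10 fell with SIN3B knockdown (median -0.32), which is 40.7% and 44.4% called. ITGB1 and ITGAV, integrin subunits of fibronectin and vitronectin receptors, rose with SIN3A knockdown (0.37 ± 0.08 and 0.51 ± 0.12). LOX, a collagen cross-linking enzyme, fell in both knockdowns (-0.58 ± 0.14 with SIN3A and -0.76 ± 0.14 with SIN3B knockdown). With SIN3B knockdown MMP2, a secreted gelatinase, fell to 2.60, 3.54 and 1.92 CPM, against 6.68, 8.30 and 6.67 CPM in control (-1.42 ± 0.25, edgeR adjusted p = 3.1e-04). The matrix genes FBN1 (fibrillin 1) and FN1 (fibronectin) fell there too (-0.82 ± 0.14 and -0.49 ± 0.09). VIM, the mesenchymal intermediate filament vimentin, was abundant in all groups, at 812 ± 100 CPM in the SIN3A knockdown, 669 ± 20 CPM in the SIN3B knockdown and 773 ± 32 CPM in control. It passed the test in neither knockdown (0.07 ± 0.08 and -0.21 ± 0.08).

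Factors that act beside the 9 genes were counted as well. Of 21 tested, 2 rose and 3 fell with SIN3A knockdown (median log2 fold change -0.17), and 1 rose and 6 fell with SIN3B knockdown (median -0.12), or 23.8% and 33.3% called. ID2, an inhibitor of basic helix-loop-helix factors, was at 96.5 ± 1.8 CPM in the SIN3A knockdown, 73.7 ± 1.5 CPM in the SIN3B knockdown and 143 ± 8.4 CPM in control, and fell in both (-0.56 ± 0.07 and -0.95 ± 0.07). HMGA2, a chromatin protein known to induce SNAI1 and TWIST1, fell with SIN3B knockdown to 23.3, 25.4 and 23.2 CPM, against 64.1, 54.3 and 64.8 CPM in control (-1.35 ± 0.13, edgeR adjusted p = 5.1e-07). HMGA2 was at 58.7, 66.5 and 92.4 CPM in the SIN3A knockdown, and the direct comparison was 1.60 ± 0.13 (edgeR adjusted p = 2.3e-08). TCF3, which encodes the E proteins that pair with TWIST factors, averaged 187 ± 13 CPM in the SIN3A knockdown, 98.8 ± 0.37 CPM in the SIN3B knockdown and 165 ± 7.7 CPM in control. It fell with SIN3B knockdown (-0.74 ± 0.07) and was higher in the SIN3A than in the SIN3B knockdown (0.92 ± 0.07). Its relatives TCF4 (-0.26 ± 0.14 with SIN3A and 0.32 ± 0.14 with SIN3B knockdown) and TCF12 (-0.17 ± 0.11 and 0.24 ± 0.11) passed the test against control in neither. Both were lower in the SIN3A than in the SIN3B knockdown (TCF4 -0.59 ± 0.14, edgeR adjusted p = 0.0038, TCF12 -0.41 ± 0.11, 0.0087). The TCF12 call was lost without SIN3B knockdown replicate 3 (edgeR adjusted p = 0.073). With SIN3A knockdown ZNF703 (-0.43 ± 0.07) and FOXC1 (-0.33 ± 0.07) fell.

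Of 20 tested genes of the TGF-beta pathway, the best known inducer of the switch, 3 rose and 2 fell with SIN3A knockdown (median log2 fold change -0.01), and 4 rose and 4 fell with SIN3B knockdown (median 0.14). The share called was 25.0%, near the 23.0% of all tested genes, with SIN3A knockdown, and 40.0% with SIN3B knockdown, where it was 23.6% of all tested genes. The co-receptor gene TGFBR3 rose in both (0.57 ± 0.12 with SIN3A and 0.61 ± 0.12 with SIN3B knockdown), and the receptor gene TGFBR1 rose with SIN3B knockdown (0.74 ± 0.13). LTBP3, a latent TGF-beta binding protein, fell with SIN3A knockdown (-0.61 ± 0.12). Of 24 corepressor genes that work with SNAI, ZEB and TWIST factors, SIN3A and SIN3B among them, 3 rose and 2 fell with SIN3A knockdown (median 0.02), and 4 rose and 3 fell with SIN3B knockdown (median -0.00292), or 20.8% and 29.2% called. SIN3A was among the 2 that fell with SIN3A knockdown and SIN3B among the 3 that fell with SIN3B knockdown, each as the target of its siRNA. HDAC1 rose in both knockdowns (0.48 ± 0.06 and 0.38 ± 0.06), as did the Polycomb gene SUZ12 (0.64 ± 0.14 and 0.91 ± 0.14). The ZEB corepressors CTBP1 (0.03 ± 0.06 and 0.06 ± 0.06) and CTBP2 (0.11 ± 0.07 and -0.07 ± 0.07) did not pass the test.

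Regulators of SNAI and TWIST protein stability numbered 18, all tested. With SIN3A knockdown 1 rose and 3 fell (median log2 fold change 0.02), and with SIN3B knockdown 5 rose and the other 13 did not pass the test (median 0.08). These are 22.2% and 27.8% called, near the shares of all tested genes. GSK3B, the kinase that marks SNAI1 for degradation, moved in opposite directions: 40.5, 40.1 and 44.2 CPM in the SIN3A knockdown, 79.6, 77.4 and 85.0 CPM in the SIN3B knockdown and 53.4, 58.4 and 63.7 CPM in control. The groups did not overlap. GSK3B fell with SIN3A knockdown (-0.49 ± 0.09, edgeR adjusted p = 5.2e-04) and rose with SIN3B knockdown (0.46 ± 0.09, edgeR adjusted p = 6.1e-04), and the direct comparison gave -0.96 ± 0.09 (edgeR adjusted p = 1.2e-07). The E3 ligase genes FBXL5 and FBXO45 rose with SIN3B knockdown (0.47 ± 0.11 and 0.45 ± 0.11), and the kinase gene CSNK2A1 fell with SIN3A knockdown (-0.30 ± 0.06).

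Of 14 genes for proteases and trafficking of E-cadherin, all tested, 6 rose and 1 fell with SIN3A knockdown (median log2 fold change 0.18), and 4 rose and 5 fell with SIN3B knockdown (median -0.03), or 50% and 64.3% called. ADAM15, which sheds the E-cadherin ectodomain, rose with SIN3A knockdown to 140 ± 8.8 CPM and fell with SIN3B knockdown to 74.1 ± 3.8 CPM, against 111 ± 0.53 CPM in control. Its log2 fold changes were 0.34 ± 0.07 and -0.58 ± 0.07, and the direct comparison was 0.92 ± 0.07 (edgeR adjusted p = 1.4e-08). NCSTN, a gamma-secretase subunit, fell with SIN3A knockdown (-0.30 ± 0.07). With SIN3B knockdown the endocytic adaptor gene NUMB fell (-0.41 ± 0.08) and the Golgi gene GOLGA1 rose (0.63 ± 0.12).

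The genes with the most similar pattern were taken from 12815 tested genes by Pearson's r of log2 CPM over the 9 libraries, as a description. For CDH1 they were CRLF3 (r = 0.992) and PHF2 (0.991), for EPCAM C1orf56 (0.974) and ZNF232 (0.972), and for CDH2 YIPF6 (0.956) and RNF146 (0.952). For ZEB1 they were NEK11 (0.979) and SLC35B3 (0.966). For ZEB2 they were UBXN2B (0.977) and CROT (0.967), and for SNAI2 LINC01976 (0.962) and EPDR1 (0.960). Among the 9 genes themselves, r with CDH1 was 0.919 for CDH2, 0.894 for EPCAM, 0.604 for SNAI2 and 0.489 for SNAI1, and it was -0.30 for ZEB2, -0.38 for TWIST2, -0.54 for TWIST1 and -0.62 for ZEB1. The points share 3 siRNA groups and their library scaling.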

How the data were processed

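Poly-A RNA sequencing compared 3 siRNA groups of 3 HEK293T libraries each, grouped by title. Per the submitters' processing notes, reads were trimmed with Trimmomatic 0.36, aligned to GRCh38 with HISAT2 2.1.0 and counted with HTSeq, and DESeq2 1.20.0 was used by the authors. The deposited tables hold counts per gene and FPKM values that the authors made from the same libraries. All 58734 gene IDs matched GENCODE 29. Counts were tested with edgeR 4.0.16 under R 4.3.3, using TMM scaling, filterByExpr and the robust quasi-likelihood F-test, two-sided, in 1 fit of all 9 libraries, with p-values adjusted over all 16686 genes tested. Levels are TMM-scaled CPM. The SE of a log2 fold change was obtained from the test, as its absolute value divided by the square root of the F statistic. The method was tested on simulated data in which all groups had the same spread. That test does not cover the wider spread of the SIN3A knockdown libraries. DESeq2 1.42.0, limma 3.58.1 on log2(FPKM + 1) and log2(FPKM + 0.1), other scalings and filters, a replicate block, counts divided by 4 and leaving out each library were alternatives, and offsets for GC content and exon length and a non-robust spread were added after seeing the data. The genes and gene lists were chosen with earlier results of these data known. In each other list the up to 4 called genes per knockdown with the lowest adjusted p were eligible for naming, together with fixed paralogs and partners. Of 81 eligible pairs of a called gene and a knockdown comparison, 58 kept the call in all alternatives and 23 lost it in some. Those that lost it were left out, a choice made after their values were seen, apart from CTNNA1 and COL1A1. Lost calls of the 9 genes, CDH3, CTNND1 and TCF12 are given as well. One gene of the lists is not reported here.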

Additional observations from a re-analysis of the deposited data

How the results depend on the processing

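The number of the 9 genes called depended on the processing. With SIN3A knockdown it was 4 in the analysis reported and 2 with limma on log2(FPKM + 1) or log2(FPKM + 0.1), 5 with upper-quartile factors and 5 with GC and exon length offsets, and it ranged from 2 to 4 when libraries were left out singly. With SIN3B knockdown it was 1 with DESeq2, 2 in a fit of the 6 libraries compared and 1 with GC and exon length offsets, and 0 to 1 when libraries were left out. In the direct comparison it was 1 and 2 with limma on log2(FPKM + 1) and log2(FPKM + 0.1), and 4 with no filter or with counts divided by 4, in place of 3. The number of all genes called stayed within 1.5 times that reported under every alternative run. Upper-quartile factors changed its split: 1352 genes higher and 2313 lower with SIN3A knockdown, in place of 2029 and 1807. They moved the median of all genes by -0.069.

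CDH1 and EPCAM were lower with SIN3A knockdown in all 20 alternatives. Values that had not passed the test changed sign in some, and the cause was not tested. For TWIST2 with SIN3A knockdown the log2 fold change ranged from -0.105 (without control replicate 1) to 0.265 when libraries were left out. With SIN3B knockdown, CDH2 was at -0.0362 (upper-quartile factors), -0.00073 (counts divided by 4), -0.0236 (GC and length offsets), -0.0156 (without control replicate 3) and -0.0215 (without SIN3B knockdown replicate 3), and reached 0.0123 among the fits with a library left out. TWIST1 was at -0.0106 without control replicate 1 and -0.0562 without SIN3B knockdown replicate 3, and reached 0.204 when other libraries were left out and 0.251 over all alternatives. ZEB1 was at 0.101 without control replicate 1 and 0.155 without SIN3B knockdown replicate 1, and reached -0.162 when other libraries were left out and -0.298 over all alternatives. With the GC and length offsets ZEB2 was at -0.00987 with SIN3B knockdown, in place of 0.26, and 0.0633 in the direct comparison.

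The replicate numbers did not pair the libraries: same-numbered libraries had correlations of their deviations between -0.027 and 0.036. With the replicate number as a block, 3478, 3654 and 4239 genes were called in the 3 comparisons, and 4, 0 and 3 of the 9 genes. EPCAM, SNAI1 and TWIST2 had the fewest counts of the 9, and their differences were known least precisely.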
